A study of Mus musculus with 12 samples.

Results

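Gastruloids made from embryonic stem (ES) cells at passage 16 were compared with those made from the same line at passage 15. The members are 8 of the 12 libraries of the series, 4 of each passage, chosen by the passage and treatment in their labels, and each passage 16 library was set against the passage 15 library of the same treatment. The remaining 4 libraries, of passage 13, are given beside the results where their level adds to them. All of the libraries came from E14TG2a, a male mouse ES cell line that was kept in 2iLIF, medium with 2 kinase inhibitors and the cytokine LIF. Aggregates of 200 cells were grown without embryonic or extraembryonic support, were pulsed with the Wnt agonist CHIR99021, and were collected on day 4, and polyA RNA was sequenced. From day 3 to day 4 the medium held no glucose (0 mM), 1x glucose (21.25 mM, the control), 3x glucose (63.75 mM) or 5 mM 2-deoxy-D-glucose (2-DG), a glucose analogue that blocks glycolysis, in 1x glucose. Each library is 1 pool of gastruloids from a plate, and every library of a passage was grown from a single passage of cells. Passage can therefore not be told apart from the day, the plate or the extraction that went with it, and the p-values below measure how evenly the passages differed over the 4 treatments, not the spread between independent thaws or cultures.

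A gastruloid is an aggregate of ES cells that elongates and lays down the body axis in the order of the embryo. Its posterior tip holds cells like those of the primitive streak and tail bud, where Wnt and FGF signals keep Brachyury (T) and the Cdx genes on. Cells that leave it become presomitic mesoderm, in which Notch and the segmentation clock cycle, and then, where Mesp2 and the Ripply genes stop the clock, somites that express Tcf15, Meox1, Pax3 and Uncx. In RNA of whole aggregates, fewer cells of a type and less RNA per cell cannot be told apart.

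Totals ran from 33336139 to 38439471 estimated counts per library at passage 15 and from 32704008 to 45956080 at passage 16, and between 20515 and 21451 genes had a count. Of 17036 genes that passed a filter on low counts, 1319 (7.74%) differed between the passages at an adjusted p under 0.05 (edgeR quasi-likelihood test, with treatment as a block), 697 (4.09%) higher and 622 (3.65%) lower at passage 16. Of these 1319 genes, 1310 lay on the same side in all 4 treatments, as did 31.5% of all genes tested. The differences were small. The median absolute log2 fold change was 0.086 over all genes, 1098 of the 1319 genes changed by less than 1.5-fold, and 66 (0.387%) changed at least 2-fold, 24 (0.141%) higher and 42 (0.247%) lower. Only 18 of those 66 had a mean of 5 CPM (counts scaled to a library total of 1000000) or more, of which 13 were lower at passage 16. The calls rest on comparing like treatment with like: without the treatment block 17 genes passed. Fewer genes passed with 1 glucose treatment left out, 550 without the no glucose libraries, 606 without 1x and 419 without 3x, while 1547 passed without 2-DG. Of the 550, 606 and 419 genes, 531, 572 and 409 were among the 1319. Leaving out a treatment also takes away residual degrees of freedom, so these counts do not measure what each treatment contributes.

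**Figure D1:**
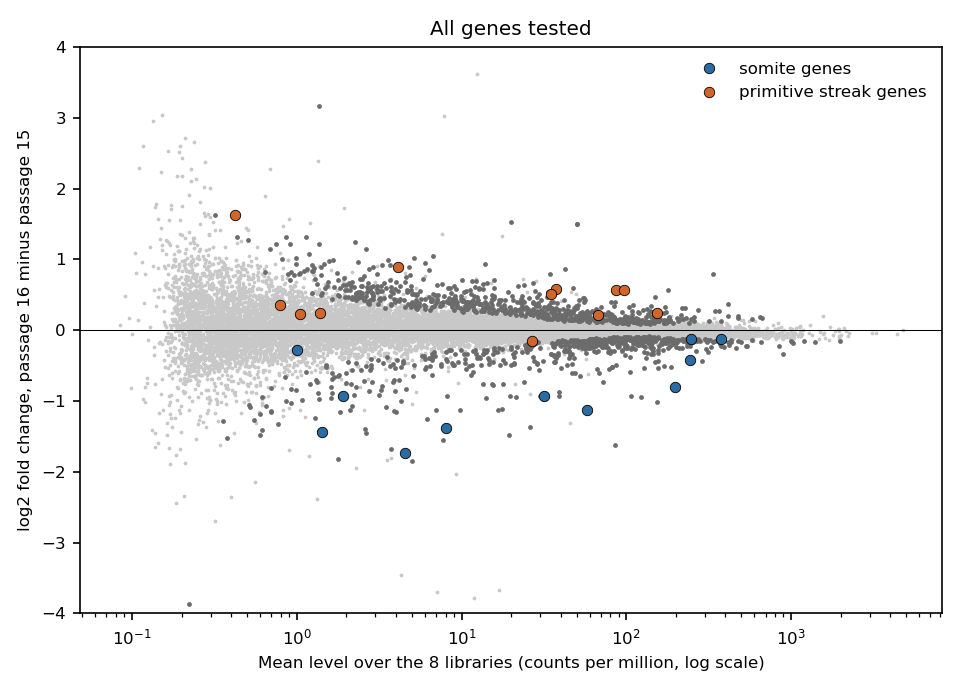
Log2 fold change between passage 16 and passage 15 (vertical axis) against the mean level in the 8 libraries (CPM, log scale) for each gene tested, with genes at an adjusted p under 0.05 in dark grey. Tested somite genes (blue) all lie below 0 and 11 of 12 primitive streak genes (orange) lie above it, and 6 genes beyond 4 on the vertical axis are not drawn.

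Set beside the treatments, the step from passage 15 to passage 16 in the 3 glucose media was larger in median size than a change in glucose and smaller than the addition of 2-DG. Over 10976 genes of at least 5 CPM, the median absolute log2 difference between the passages was 0.082 in no glucose, 0.088 in 1x, 0.088 in 3x and 0.069 in 2-DG. Within passage 15, no glucose differed from 1x by 0.077 and 3x from 1x by 0.060, and within passage 16 by 0.057 and 0.059, whereas 2-DG differed from 1x by 0.17 and 0.14. All 4 treatments together took the larger part of the variance. Passage held a median of 10.2% of a gene's variance among the 8 libraries and treatment 68.1%, passage held more than treatment in 16.9% of these genes, and 5434 genes (31.9%) differed between treatments. The shares are of sums of squares, in which treatment has more degrees of freedom than passage. Noise alone would therefore give treatment the larger share, and the shares are not like-for-like sizes of effect. Passage 13 stood further away, with 6461 genes (38.0%) differing from passage 15 and 5684 (33.3%) from passage 16, and a median absolute log2 fold change of 0.17 in each case. These comparisons share their passage 15 or passage 16 libraries with the main one.

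Somite genes were lower at passage 16. Of 13 somite genes listed, 11 were tested and 8 fell, 4 of them at least 2-fold, none rose, and the median log2 fold change of the 11 was -0.93, against 0.00089 over all genes. Over all genes tested 3.65% fell and 4.09% rose, and the counts of each list below stand beside these shares. Tcf15, the paraxial mesoderm factor needed to form epithelial somites, stood at 105, 78.3, 65.4 and 70.8 CPM in no glucose, 1x, 3x and 2-DG at passage 15, and at 41.9, 36.6, 34.3 and 32 CPM at passage 16. The highest passage 16 library lay below the lowest of passage 15, a fall of 2.19-fold (log2 -1.13, SE 0.056, adjusted p = 2.45e-05). Meox1, a homeobox gene of the whole somite, was at 313, 260, 218 and 215 CPM at passage 15 and at 163, 154, 135 and 124 CPM at passage 16. These groups did not overlap either, with a log2 fold change of -0.80 (SE 0.039, adjusted p = 2.45e-05). Such separation was seen in 4 of the 11 tested somite genes, the others being Meox2 and Pax3, while 2.96% of all genes tested had every passage 16 library below every passage 15 library, 2.52% had every one above, and 5.48% had the one or the other.

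Genes of somite boundaries and compartments had the largest falls of the list. Uncx, which marks the posterior part of each somite, was at 13.3, 8.79, 5.79 and 0.818 CPM at passage 15 and at 2.18, 1.52, 2.99 and 0.824 CPM at passage 16. It was lower in the 3 glucose treatments and level in 2-DG, where both libraries were low, and its log2 fold change of -1.73 (SE 0.36, adjusted p = 0.0247) had the largest SE of the list. Ripply1 changed by -1.43 (SE 0.21, adjusted p = 0.00535) and Tbx18, the factor of the anterior compartment, by -1.38 (SE 0.083, adjusted p = 6.92e-05). Tbx18 fell from 15.4, 13.8, 11.2 and 5.78 CPM to 5.71, 6.02, 4.43 and 1.91 CPM, so that each treatment was lower and the ranges overlapped through the 2-DG library of passage 15. Pax3, expressed in somites and in the dorsal neural tube, changed by -0.93, Meox2 by -0.94 and Foxc2, which acts in the paraxial mesoderm, by -0.42. Aldh1a2, the enzyme that makes retinoic acid in somites, Foxc1 and Myf5 did not pass, with log2 values of -0.13, -0.12 and -0.28. With any treatment left out 7 or 8 somite genes were called lower, and 5 with all 12 libraries in the fit. Passage held a median of 57.3% of the variance of the tested somite genes and treatment 42.3%.

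The 10 genes with the largest falls were taken among called genes of at least 5 CPM with the same direction in the 4 treatments. Ripply2, a repressor that sets the somite boundary with Tbx6 and Mesp2, was at 35.0, 40.5, 38.4 and 35.5 CPM at passage 15 and at 17.3, 18, 16 and 8.43 CPM at passage 16 (log2 -1.36, SE 0.14, adjusted p = 0.00121). Dmrt2, which acts in the dermomyotome of early somites, went from 40.6, 35.4, 30.4 and 9.76 CPM to 12, 10.1, 11.9 and 5.21 CPM (log2 -1.49, SE 0.13, adjusted p = 0.000606). Each treatment was lower for both genes. Cer1, a secreted antagonist of Nodal and BMP made in anterior endoderm and in newly formed somites, was at 190, 160, 110 and 57.7 CPM at passage 15 and at 60.8, 50.8, 45.5 and 13.8 CPM at passage 16. This 3.09-fold fall (SE 0.092 on the log2 scale, adjusted p = 5.77e-05) went against the endoderm list that holds it, described below. Pgm5, a protein of cell junctions, had the largest fall of the 10, from 12.2, 8.79, 6.55 and 4.36 CPM to 2.18, 2.43, 2.30 and 1.54 CPM without overlap (log2 -1.85, SE 0.16, adjusted p = 0.000458). Wnt16, a secreted Wnt ligand, went from 8.91, 9.81, 7.19 and 8.76 CPM to 3.87, 3.66, 2.84 and 4.2 CPM, again without overlap (log2 -1.26, SE 0.087, adjusted p = 0.000146). The remaining genes of the 10, beside Tbx18 and Tcf15, were Foxd1 (-1.55), Stum (-1.13) and the claudin Cldn11 (-1.13), each lower in all 4 treatments.

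Start regions of 3 genes that fell, picked for their matches, are shown for the letters bound by T-box factors, a family that is active where somites form. Ripply1 is from the somite list and is not among the 10 genes with the largest falls. For Ripply1, Ripply2 and Dmrt2, all of which fell, the 250 bases before the RefSeq transcription start are given on build GRCm38, gene strand, with matches to the T-box letters GGTGTG, or CACACC on the other strand, in capitals. Ripply1 is at chrX:139782354-139782603 (minus strand), Ripply2 at chr9:87015287-87015536 (plus) and Dmrt2 at chr19:25672161-25672410 (plus).
Ripply1: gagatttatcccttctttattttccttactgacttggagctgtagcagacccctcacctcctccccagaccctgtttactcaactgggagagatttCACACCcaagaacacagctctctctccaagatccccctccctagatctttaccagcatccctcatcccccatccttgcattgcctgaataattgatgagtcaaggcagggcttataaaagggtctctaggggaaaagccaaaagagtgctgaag
Ripply2: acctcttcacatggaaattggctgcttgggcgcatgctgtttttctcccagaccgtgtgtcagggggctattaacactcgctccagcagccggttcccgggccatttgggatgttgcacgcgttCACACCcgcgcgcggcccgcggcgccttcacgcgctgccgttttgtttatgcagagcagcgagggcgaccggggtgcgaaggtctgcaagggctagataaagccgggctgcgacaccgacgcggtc
Dmrt2: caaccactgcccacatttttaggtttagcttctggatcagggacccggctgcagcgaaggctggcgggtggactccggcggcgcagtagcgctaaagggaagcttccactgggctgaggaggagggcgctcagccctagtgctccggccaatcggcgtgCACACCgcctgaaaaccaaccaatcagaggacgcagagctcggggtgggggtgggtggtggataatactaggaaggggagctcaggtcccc
Each held 1 match. Of the 10 genes with the largest falls, 9 had such a region and 4 of these held a match, against 16.3% of 32851 start regions in all. Of the 10 with the largest rises 0 did, but these include Sprr2a1, Sprr2a2 and Sprr2a3, whose start regions are copies of each other. Of the 8 called somite genes 1 of the 4 with a region did. The letters and the genes were chosen with the values known, and a match is a description of the sequence, not a bound site.

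**Figure D2:**
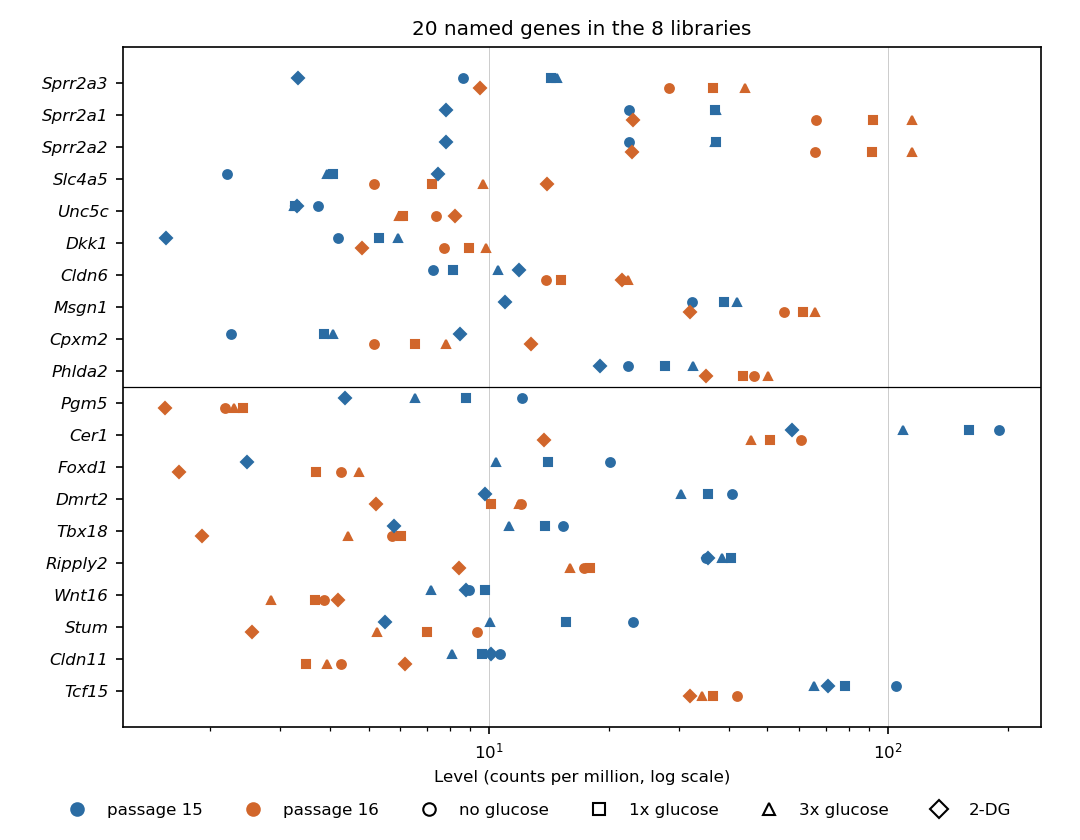
Levels (CPM, log scale) of the 10 genes with the largest rises (above the line) and the 10 with the largest falls (below it), with 1 point per library, passage 15 in blue and passage 16 in orange, and the marker giving the treatment. The genes were picked as called, with large changes and the same direction in all 4 treatments, so each gene's passage 16 points lie on 1 side of their partners. For 8 of the 20 genes, among them Tcf15, Ripply2, Wnt16, Unc5c and Phlda2, the passages do not overlap. The same holds for 5.48% of all genes tested.

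Presomitic mesoderm genes were divided. Of 13 genes tested 5 rose and 3 fell, beside 4.09% and 3.65% of all genes tested, and the median log2 fold change was -0.0053. Ripply2 and Mesp2 (-0.65, SE 0.10, adjusted p = 0.00755), which act late, at the determination front, fell. The other fall was that of Lfng, the glycosyltransferase that modifies Notch (-0.44, SE 0.034, adjusted p = 0.000279). Those that rose were Msgn1 and Tbx6, transcription factors of newly made presomitic mesoderm, the Wnt antagonist Dkk1, the Wnt agonist Rspo3 and the clock gene Hes7. Msgn1 was at 32.3, 38.8, 42 and 11 CPM at passage 15 and at 55.1, 61.2, 66 and 32 CPM at passage 16, higher in each treatment by 1.82-fold overall (log2 0.86, SE 0.12, adjusted p = 0.00535). Dkk1 went from 4.2, 5.31, 5.94 and 1.55 CPM to 7.71, 8.91, 9.84 and 4.81 CPM (log2 0.95, SE 0.14, adjusted p = 0.0058). The passages overlapped for both genes, since the 2-DG library was the lowest of each passage. Tbx6 and Hes7 rose by 0.31 and 0.10. Dll1 and Dll3, the Notch ligands, had values of -0.03 and -0.01 and did not pass. Among 10 Notch pathway and target genes 4 fell (Heyl -0.74, Lfng, Hey1 -0.40 and Notch1 -0.25) and 1, Hes7, rose. Without the 3x libraries 2 Notch falls were called, and Hes7 was not called without any 1 of the treatments. The presomitic rises called numbered 3 without any 1 of the glucose treatments and 3 with no filter on low counts, and the falls 3 in each case. With all 12 libraries in the fit, 1 presomitic gene, Lfng, was called.

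Primitive streak genes lay on the higher side. Of 12 tested, 8 rose and none fell, beside 4.09% and 3.65% of all genes tested, with a median log2 fold change of 0.43. Lhx1, a homeobox gene of the streak and nascent mesoderm, was at 75.2, 69.3, 60.0 and 73.0 CPM at passage 15 and at 127, 105, 90.5 and 93.3 CPM at passage 16. The groups did not overlap (log2 0.57, SE 0.053, adjusted p = 0.00068). Mixl1, a mesendoderm homeobox gene, had 3.81, 3.61, 3.93 and 0.273 CPM against 7.46, 6.70, 6.78 and 0.585 CPM, higher in each treatment and under 1 CPM in 2-DG (log2 0.90, SE 0.086, adjusted p = 0.0008). Eomes, the T-box gene of the early streak, had the largest fold change of the list, 1.63 on the log2 scale, at levels under 1 CPM (0.157 to 0.245 CPM at passage 15 and 0.319 to 0.891 CPM at passage 16, SE 0.36, adjusted p = 0.0319). Evx1, Sp5 and Fgf4 rose by 0.58, 0.56 and 0.51, T by 0.25 and Fgf8 by 0.21. Gsc, Nodal, Wnt3 and Mesp1 did not pass, with values of 0.36, 0.25, 0.24 and -0.15. The count was 4 of 12 without the 3x libraries and 2 of 12 with all 12 libraries in the fit.

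Sp5, Dkk1 and Msgn1 are known Wnt targets, and their start regions are shown for the TCF/LEF letters CTTTGA, or TCAAAG on the other strand, in capitals. The 250 bases before the start of Dkk1 are chr19:30549497-30549746 (minus strand), those of Msgn1 chr12:11208949-11209198 (minus) and those of Sp5 chr2:70474673-70474922 (plus), on GRCm38 from RefSeq.
Dkk1: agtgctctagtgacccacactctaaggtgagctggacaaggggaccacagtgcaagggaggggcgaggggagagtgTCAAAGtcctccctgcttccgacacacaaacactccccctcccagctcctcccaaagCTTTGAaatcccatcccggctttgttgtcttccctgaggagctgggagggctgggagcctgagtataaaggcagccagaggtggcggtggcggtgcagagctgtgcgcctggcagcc
Msgn1: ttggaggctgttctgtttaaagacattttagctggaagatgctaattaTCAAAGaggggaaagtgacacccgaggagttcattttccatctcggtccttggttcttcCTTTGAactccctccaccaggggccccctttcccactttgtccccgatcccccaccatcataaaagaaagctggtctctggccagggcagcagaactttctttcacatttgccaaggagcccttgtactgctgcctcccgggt
Sp5: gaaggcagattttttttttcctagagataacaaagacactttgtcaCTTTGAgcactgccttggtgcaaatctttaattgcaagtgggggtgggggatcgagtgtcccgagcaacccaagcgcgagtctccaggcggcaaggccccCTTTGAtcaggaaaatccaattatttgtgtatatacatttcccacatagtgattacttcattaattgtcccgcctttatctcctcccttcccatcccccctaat
Each held 2 matches, and 13.8% of all start regions held at least 1. They were picked for their matches. Of the 10 genes with the largest rises, which include the 3 Sprr2a copies, 2 held one. Of the 10 with the largest falls 1 of the 9 with a region did, and of the 8 called streak genes 2 of the 6 with a region did. Across the Wnt feedback genes, 4 of 11 rose by edgeR, Dkk1, Sp5, Tcf7 (0.13) and Nkd1 (0.14), and none fell. On the lower side 2 had an unadjusted edgeR p under 0.05, and DESeq2 called 1 lower. Axin2 and Lef1, at 0.08 and -0.17, did not pass. Without 1x or without 3x 2 rises were called, and with all 12 libraries none (at an unadjusted edgeR p under 0.05, 3 were).

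Of 11 tail bud genes 6 rose and none fell, beside 4.09% and 3.65% of all genes tested, with a median of 0.27. Cdx1, a homeobox gene that posteriorizes the axis, was at 130, 134, 146 and 171 CPM at passage 15 and at 201, 202, 215 and 239 CPM at passage 16, with no overlap (log2 0.56, SE 0.030, adjusted p = 3.83e-05). Cyp26a1, which degrades retinoic acid in the tail bud, rose by 0.40 and Sp8 by 0.27, beside Evx1, T and Fgf8. The count was 4 without the 1x libraries, 2 without the 3x libraries and 1 with all 12. Cdx2, Nkx1-2 and Wnt3a had values of 0.13, 0.15 and 0.29 and did not pass. The Hox genes, which follow axial position, moved in both directions. The share called was 25% in groups 1 to 4, 18.2% in groups 5 to 8 and 16.7% in groups 9 to 13. Over all genes tested it was 7.74%. Of 29 tested, 3 rose, among them Hoxb1 (0.14) and Hoxa5 (0.29), and 3 fell, Hoxd1 from 52.9 to 67.8 CPM down to 33.2 to 41.9 CPM (-0.61, SE 0.040, adjusted p = 0.000117), Hoxd8 (-0.49) and Hoxc9 (-0.51). Hoxb1 and Hoxa5 were not called without 3x, nor Hoxc9 without any 1 of the glucose treatments.

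**Figure D3:**
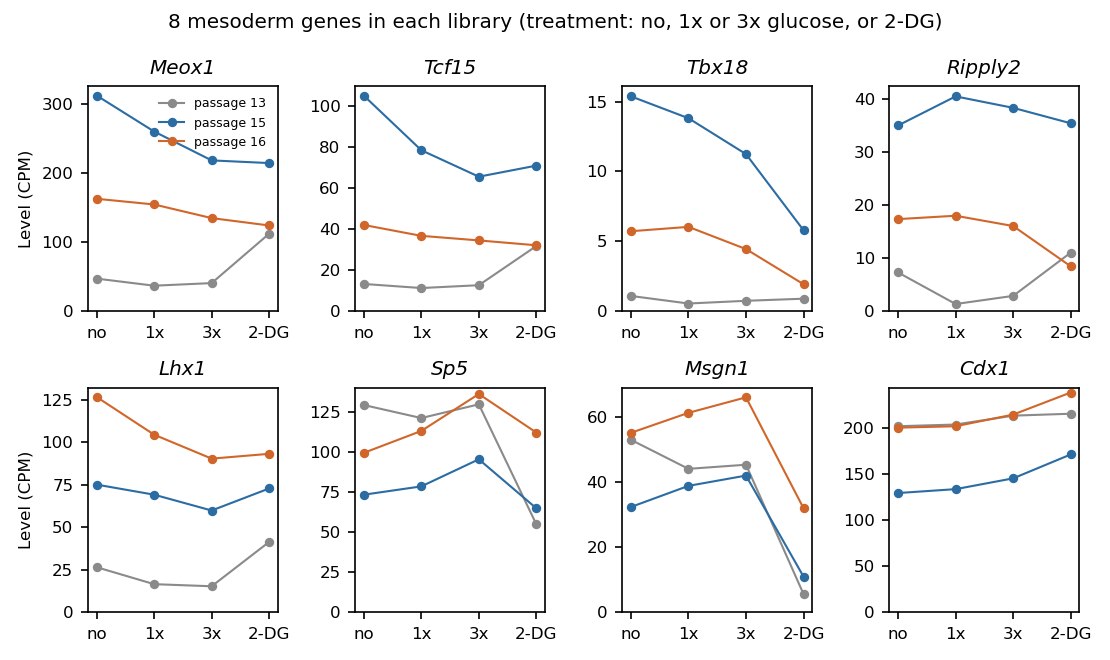
Levels (CPM, linear axis from 0) of 8 mesoderm genes in each treatment at passages 13 (grey), 15 (blue) and 16 (orange), with 1 library per point. The somite and boundary genes Meox1, Tcf15, Tbx18 and Ripply2 are higher at passage 15 than at passage 16 in each treatment, while Lhx1, Sp5, Msgn1 and Cdx1 are higher at passage 16.

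Passage 13 extended the order of the somite genes. For all 11 of them its mean was below that of passage 16, which was below that of passage 15, and in 9 of the 11 each passage 13 library was below each passage 16 library. Meox1 stood at 46.9, 36.6, 40.4 and 112 CPM at passage 13, and Tcf15 at 13.1, 11.1, 12.5 and 31.6 CPM, with 2-DG the highest library of both. Against passage 13, 10 of the 11 were called higher at passage 15 and 9 at passage 16, as were 19.6% and 16.9% of all genes tested. The 10 genes with the largest falls between passages 15 and 16 gave the same order of means, 10 of 10. Tail bud genes went the other way. Passage 13 had a higher mean than passage 16 in 10 of 11, passage 16 lay between the other two in 9 of 11, and 11 of 11 were called lower at passage 15 than at passage 13 and 5 of 11 lower at passage 16 than at passage 13, beside 18.4% and 16.3% of all genes. For the 10 genes with the largest rises the order did not repeat, since passage 16 was the intermediate one in 1 of 10. For the somite and tail bud genes the passages were thus not in the order of their numbers. These counts share libraries with the comparison that chose the genes and are a description. How many of all genes tested show such orders of means, or such separation from passage 13, was not counted. Those counts thus have no share to stand beside, and 33.3% of all genes tested differed between passages 16 and 13.

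Some pluripotency and epithelial genes were higher at passage 16, and most members of the pluripotency lists did not pass. Pou5f1 (Oct4) was at 20.2, 23.7, 24.8 and 42.1 CPM at passage 15 and at 31.1, 35.8, 40.0 and 51.2 CPM at passage 16, higher in each treatment (log2 0.54, SE 0.065, adjusted p = 0.0023). In its list 4 of 11 rose and none fell, the others being the epithelial adhesion gene Epcam (0.58), Trim71 (0.21) and the DNA methyltransferase Dnmt3b (0.15), while Sox2, at -0.16, did not pass. Without any 1 of the glucose treatments 2 rises were called in this list. Of 13 naive pluripotency genes 2 rose, Tbx3 (0.72) and Dppa5a (0.41), and Nanog, Klf4, Esrrb and Zfp42 did not pass. Without any 1 of the glucose treatments 1 rise was called in the naive list. In the list of the cadherin switch 4 genes rose and 3 fell. Cdh1, the epithelial cadherin, went from 20.9, 27.3, 37.9 and 66.9 CPM to 31.8, 45.8, 60.1 and 88.1 CPM (log2 0.60, SE 0.054, adjusted p = 0.000633), and the claudin Cldn6 from 7.27, 8.16, 10.6 and 11.9 CPM to 13.9, 15.2, 22.4 and 21.6 CPM (log2 0.94, SE 0.069, adjusted p = 0.000209). Both rose in each treatment, Cldn6 without overlap, and within each passage both were lowest in no glucose. Twist1, a mesenchymal factor, moved the other way without overlap, from 50.1 to 63.6 CPM at passage 15 to 34.9 to 42.3 CPM at passage 16 (log2 -0.48, SE 0.043, adjusted p = 0.000602), and Zeb1 and Zeb2 fell by 0.21 and 0.23 on the log2 scale. Vim, a mesenchymal filament gene, rose by 0.15, and Cdh2 and Snai1 did not pass.

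Of 9 definitive endoderm genes 4 rose and Cer1 fell, beside 4.09% and 3.65% of all genes tested. Foxa2, the endoderm and axial mesoderm factor, was at 1.16, 0.942, 1.64 and 0.327 CPM at passage 15 and at 2.33, 2.23, 2.47 and 0.665 CPM at passage 16 (log2 0.94, SE 0.14, adjusted p = 0.00709). Sox17 rose by 0.86, Trh by 0.67 and Cldn4 by 0.56, each in all 4 treatments. The Nodal pathway gave 4 of 7 higher, led by the Nodal inhibitor Lefty2 at 1.22, 2.07, 1.46 and 0.382 CPM against 4.39, 4.33, 4.04 and 0.266 CPM (log2 1.25, SE 0.24, adjusted p = 0.0191). It was higher in the 3 glucose treatments and lower in 2-DG, where both libraries were under 1 CPM. Gdf3 and Foxh1 rose by 0.47 and 0.29, and Nodal itself, at 0.25, did not pass. Few of these calls were made with a treatment left out: 1 was made without no glucose, 2 without 2-DG, and none without 1x or without 3x, where 4 had an unadjusted edgeR p under 0.05, while DESeq2 called 3. Prdm1, a repressor used in germ cell and endoderm precursors, rose from 0.628 to 0.975 CPM to 1.65 to 2.03 CPM without overlap (log2 1.22, SE 0.13, adjusted p = 0.00153).

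FGF-ERK feedback genes rose in 6 of 11 and fell in none, by 0.16 to 0.35: Spry4 0.35, Dusp4 0.30, Spred2 0.26, Etv5 0.25, Il17rd 0.17 and Etv4 0.16. With all 12 libraries in the fit 2 were called. Over all genes tested 4.09% rose and 3.65% fell in the main fit. Dusp6 and Spry2, at 0.01 and -0.08, did not pass. Of 9 BMP targets Id1 (0.51) and Id3 (0.40) rose. In the retinoic acid list Cyp26a1 and Dhrs3 rose by 0.40 and 0.43, and Stra6 and Crabp2 fell by 0.17 and 0.11 on the log2 scale. The falls called in that list numbered 1 without 3x and 0 without any other treatment, with all 12 libraries or with no filter on low counts, while DESeq2 called 3, and Dhrs3 was not called without no glucose or without 3x. Of 15 neural progenitor genes 4 fell, Pax3 (-0.93), Pax6 (-0.70), Sox3 (-0.41) and Zic1 (-0.34), and the proneural gene Neurog2 rose by 0.90, from 0.536 to 1.77 CPM to 0.983 to 3.54 CPM. Sox1, Sox2, Nes and Hes5 did not pass. Of 6 genes tested in the anterior neural list 2 rose and 0 fell. Gbx2, a neural and epiblast gene of that list, rose by 0.36 (SE 0.022, adjusted p = 7.42e-05). No lateral plate or cardiac gene of 9 passed by edgeR (2 had an unadjusted p under 0.05) or by DESeq2, and of 11 endothelial and blood genes Etv2 (0.84) and Tal1 (1.07) rose. The rises called in the latter list numbered 0 without no glucose, without 3x or with no filter, 1 by DESeq2 and 4 without 2-DG.

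**Figure D4:**
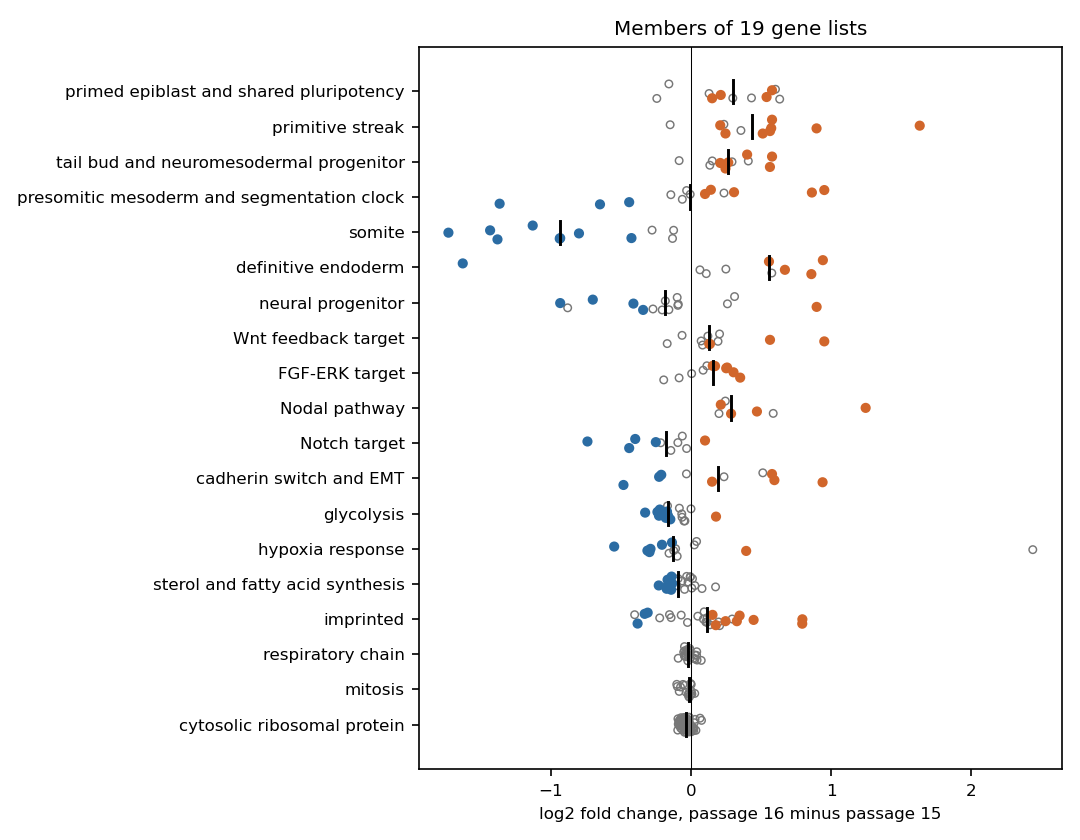
Log2 fold change between passage 16 and passage 15 of the tested members of 19 gene lists, with orange and blue points for members that rose or fell at an adjusted p under 0.05, open points for the others and a bar at the list's median. Somite medians lie furthest to the left (-0.93), streak, tail bud and endoderm lists lie to the right, and the ribosomal, mitosis and respiratory chain lists hold no called member.

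Lists of metabolic genes held small falls. Of 17 glycolysis genes 9 fell and 1 rose, with a median of -0.16, and 12 were lower in each treatment. Over all genes tested 3.65% fell, 4.09% rose and 15.3% were lower in each treatment. Slc16a3, the lactate exporter, was at 207, 177, 179 and 127 CPM at passage 15 and at 167, 144, 150 and 93.5 CPM at passage 16 (log2 -0.33, SE 0.032, adjusted p = 0.000927). Pfkl, a subunit of the enzyme that commits glucose to glycolysis, fell by 0.24 on the log2 scale without overlap, from 429, 338, 327 and 329 CPM to 324, 307, 300 and 270 CPM. Aldoc, Pgk1, Tpi1, Ldha, Aldoa, Pgam1 and Pkm fell by 0.15 to 0.23 on the log2 scale. The glucose transporter Slc2a3 rose by 0.18, which was not called without 1x or without 3x, and Gapdh, Eno1, Hk2 and Slc2a1 did not pass. Summed over the list, glycolysis took 9565 to 10398 CPM at passage 15 and 8780 to 9314 CPM at passage 16, which did not overlap. The falls called numbered 5 without the no glucose libraries, 5 without 1x and 2 without 3x. At passage 13, 15 of the 17 were called higher than at passage 15 and 15 higher than at passage 16, as were 18.4% and 16.3% of all genes tested.

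Hypoxia response genes, many of them driven by the factor that also drives glycolysis genes, fell in 6 of 14 and rose in 1. Bnip3, a mitophagy receptor, went from 103, 82.2, 69.5 and 62.4 CPM to 71.0, 54.5, 45.6 and 46.2 CPM (log2 -0.55, SE 0.036, adjusted p = 0.000117). Vegfa, Pdk1, P4ha1, Egln1 and Kdm3a fell by 0.31, 0.30, 0.29, 0.21 and 0.14 on the log2 scale, and Egln3 rose by 0.39, a call not made without any 1 of the glucose treatments. Of 23 sterol and fatty acid genes 9, all of sterol synthesis or its control, fell by 0.13 to 0.23 on the log2 scale, led by Idi1 and Fdps. Without 1 glucose treatment the falls called numbered 2 to 4 in the sterol list and 4 or 5 in the hypoxia list. Lists that stand for general cell state held few calls. None of 3 glucose-responsive genes (Txnip, Arrdc4 and Klf10), 16 chaperone genes of the endoplasmic reticulum, 17 mitosis genes, 78 ribosomal protein genes, 25 respiratory chain genes or 13 mitochondrially encoded genes passed by edgeR, with 14 of these 152 genes at an unadjusted p under 0.05 and 6 called by DESeq2. Further, 1 of 18 DNA replication genes (Cdt1, 0.18) and 1 of 17 ATF4 targets (Asns, 0.11) rose, and 3 of 18 p53 targets (Pidd1, Bbc3 and Phlda3) rose by 0.21 to 0.22. These rises were 5.56% of the replication list, 5.88% of the ATF4 list and 16.7% of the p53 list, beside 4.09% of all genes tested. The calls of Cdt1 and Asns were not made without any 1 of the glucose treatments. Of 13 immediate early genes Jun fell from 22.2, 18.8, 17.1 and 16.6 CPM to 9.21, 9.73, 9.82 and 9.52 CPM without overlap (log2 -0.96, SE 0.090, adjusted p = 0.000709), Ier2 rose by 0.15, which was not called without any 1 of the glucose treatments, and Fos and Egr1 did not pass.

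Imprinted genes, which are expressed from 1 parental copy, gave 8 higher and 3 lower of 27, beside 4.09% and 3.65% of all genes tested. Meg3, Rian and Mirg, noncoding RNAs from the maternal copy of 1 cluster on chromosome 12, rose together by 0.35, 0.33 and 0.45, and Dlk1, the paternally expressed gene of that cluster, by 0.25. Meg3 was at 100.4, 123, 129 and 147 CPM at passage 15 and at 136, 151, 169 and 177 CPM at passage 16, higher in each treatment (SE 0.032, adjusted p = 0.000633). Phlda2, a maternally expressed growth gene, went from 22.3, 27.6, 32.6 and 19 CPM to 46.2, 43.4, 50.2 and 35.0 CPM without overlap (log2 0.79, SE 0.071, adjusted p = 0.000602), and Peg10, paternally expressed, rose by 0.79 and was higher in each treatment. Igf2, the growth factor of the paternal copy, fell from 835 to 1212 CPM to 642 to 907 CPM (log2 -0.33, SE 0.040, adjusted p = 0.00235), and Grb10 and Airn fell by 0.31 and 0.38 on the log2 scale. H19, Mest and Snrpn did not pass, with values of 0.11, -0.02 and -0.22. The rises called numbered 5 without 1x and 5 without 3x.

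Among called genes of at least 5 CPM with the same direction in all 4 treatments, the 3 largest rises were Sprr2a1, Sprr2a2 and Sprr2a3, small proline-rich proteins of the cornified envelope, which lie beside each other on chromosome 3. Sprr2a1 was at 22.5, 37.0, 37.2 and 7.83 CPM at passage 15 and at 66.2, 91.8, 115 and 23.1 CPM at passage 16 (log2 1.5, SE 0.056, adjusted p = 1.11e-05). Sprr2a2 had 22.5, 37.1, 36.9 and 7.83 CPM and then 65.9, 91.3, 115 and 22.8 CPM, and Sprr2a3 rose by 1.53. The start region of Sprr2a1 (chr3:92215585-92215834, plus strand) is printed because its copies cannot be told apart there.
Sprr2a1: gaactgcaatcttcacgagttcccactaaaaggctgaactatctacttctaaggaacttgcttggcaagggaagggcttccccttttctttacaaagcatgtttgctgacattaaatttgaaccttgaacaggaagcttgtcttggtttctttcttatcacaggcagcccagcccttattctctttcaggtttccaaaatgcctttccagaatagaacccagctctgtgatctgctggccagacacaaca
Over the full window, 250 bases before the start and 50 after it, Sprr2a1 and Sprr2a2 were identical at 300 of 300 bases, and Sprr2a3, shifted by 28 bases, at 272 of 272. Of the transcripts themselves, no more than those first 50 bases were compared. How reads were apportioned among these copies is uncertain and was not tested. They are therefore taken here as 1 rise in a group of copies rather than 3 genes.

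Slc4a5, a bicarbonate transporter, Unc5c, a netrin receptor, and Cpxm2, a carboxypeptidase-like protein, completed the rises. Slc4a5 was at 2.21, 4.08, 3.93 and 7.45 CPM at passage 15 and at 5.16, 7.22, 9.67 and 14 CPM at passage 16 (log2 1.05, SE 0.10, adjusted p = 0.000726), higher in each treatment. Counted on its most abundant transcript alone it turned to -0.58. Unc5c stood at 3.73, 3.27, 3.26 and 3.30 CPM and then at 7.37, 6.11, 5.95 and 8.24 CPM, without overlap (log2 1.02, SE 0.096, adjusted p = 0.000706). Cpxm2 rose by 0.84 and was higher in all 4 treatments.

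Differences between the passages were also seen by chromosome. Genes of chromosomes 6 and 8 had median log2 fold changes of 0.069 (834 genes) and 0.061 (904 genes), or 4.90% and 4.28% higher at passage 16, whereas the medians of the other 18 chromosomes lay between -0.031 and 0.014. On chromosome 6, 74.7% of the genes tested were above 0, on chromosome 8 71.5%, and on the others 40.6% to 53.9%. Taken by treatment, relative to all genes of at least 5 CPM, the medians of chromosome 6 were 0.086, 0.068, 0.064 and 0.078 in no glucose, 1x, 3x and 2-DG, and those of chromosome 8 were 0.079, 0.058, 0.061 and 0.050. No single treatment of any other chromosome exceeded 0.032. The shift ran along both chromosomes: in windows of 20 Mb all 8 medians of chromosome 6 (0.045 to 0.10) and all 7 of chromosome 8 (0.051 to 0.081) were above 0. The genes called were 79 higher and 22 lower on chromosome 6 and 79 higher and 9 lower on chromosome 8. Both directions together, they were 12.1% of the genes tested on chromosome 6 and 9.73% on chromosome 8, beside 7.74% of all genes tested. Chromosome X, with a median of -0.0061, had a larger share called than chromosome 8, with 35 genes higher and 28 lower. Passage 13 lay lower still on chromosome 6, where passage 15 exceeded it by 0.074 to 0.11 and passage 16 by 0.15 to 0.18 in the 4 treatments, while on chromosome 8 passage 15 differed from it by -0.025 to 0.039 and passage 16 by 0.047 to 0.098. What sets these chromosomes apart was not tested. Without their genes, 7 of 11 streak genes rose and 7 of 10 somite genes fell.

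**Figure D5:**
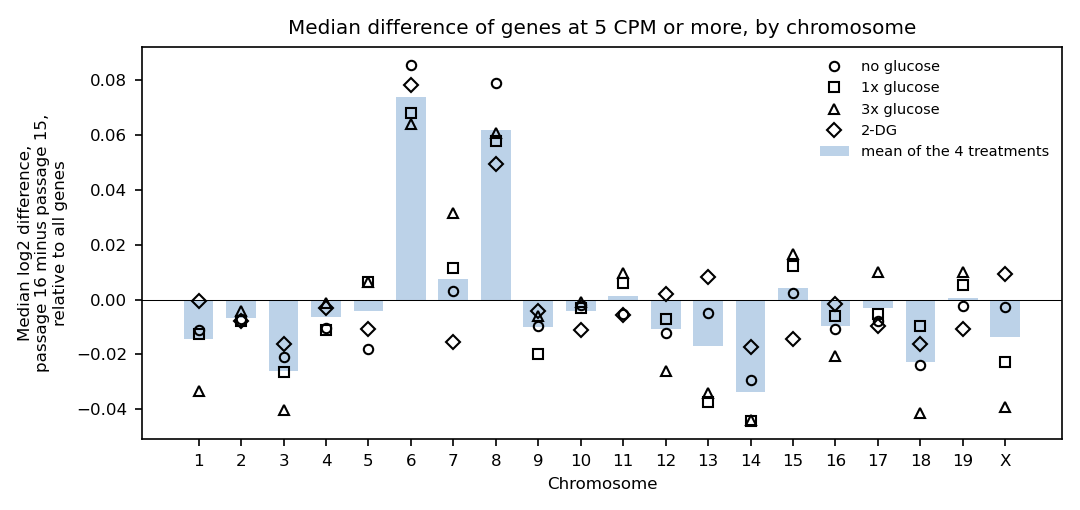
Median log2 difference between passage 16 and passage 15 for genes of at least 5 CPM on each chromosome, relative to all such genes, with 1 point per treatment and a bar at their mean. The 4 points of chromosomes 6 (0.064 to 0.086) and 8 (0.050 to 0.079) lie above all points of the other chromosomes, which reach 0.032.

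The size of the passage difference was then compared between 2-DG and the 3 glucose treatments. In 2-DG it is a single pair of libraries with no spread of its own, so the spread in this test comes from the 3 glucose pairs and 2-DG is assumed to vary like them. At an adjusted p under 0.05 the test named 24 genes (0.141%), and 131 without the no glucose libraries. Of the 24, 19 were listed at 0 in at least 1 library and 13 are predicted genes with names of the form Gm and a number. The 5 with a count in all 8 libraries were Msgn1, Cdx4, Cep57, Gm3317 and Gm3636, the last 3 named after their values were seen. Msgn1 was higher at passage 16 by 0.76, 0.65 and 0.65 in no glucose, 1x and 3x and by 1.52 in 2-DG (difference 0.86, SE 0.10, adjusted p = 0.0339). Cdx4, a tail bud homeobox gene, was higher by 0.22, 0.31 and 0.17 and by 1.01 in 2-DG (difference 0.79, SE 0.095, adjusted p = 0.0378). Its overall difference, 0.41, did not pass (adjusted p = 0.0751).

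Markers of cells from outside the gastruloid were examined as well. Of 10 fibroblast genes, which would mark feeder cells, 6 were tested and 1 rose (Col1a2, 0.62, at 1.5 to 4.11 CPM), which was not called by DESeq2, with all 12 libraries, with no filter, without no glucose or without 3x, and the list summed to 29.8 to 36.2 CPM at passage 15 and 32 to 39.9 CPM at passage 16. None of the 3 trophoblast or 5 extraembryonic endoderm genes tested passed by edgeR or DESeq2 (0 and 2 had an unadjusted edgeR p under 0.05), with sums of 0.915 to 1.66 CPM and 8.40 to 12.6 CPM over the 8 libraries, and 1 and 2 of the 8 genes of those lists were at 0 throughout. Y-linked genes were expressed at passages 15 and 16 and none of the 6 tested members of the list with Xist passed by edgeR, DESeq2 or at an unadjusted p under 0.05. Of 8 genes of the 2-cell-like state none passed the filter. GC content correlated with the fold change across 15449 genes at 0.117 and transcript length at -0.012, as a description of genes that share libraries.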

How the data were processed

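PolyA RNA of 12 gastruloid libraries was sequenced, 4 of which are of passage 15 and 4 of passage 16, with 1 library per treatment. The authors trimmed reads with Trim Galore, aligned them to mm10 with HISAT2, used SAMtools and Picard, and estimated counts with StringTie, per the labels. The versions and the counting strand are not given in the sources used here. The deposited files hold estimated counts, as whole numbers, for 120312 RefSeq transcripts. The authors' 3 tables of DESeq2 fold changes and adjusted p-values were not used.

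Here the counts were summed over the transcripts of each symbol (38911 genes, of which 25489 had a count in the 8 libraries, and 18307 have more than 1 transcript) with names from the RefSeq table of GRCm38, to which all transcripts matched. At most 9.67% of values were identical between 2 libraries. Genes were kept by edgeR's filterByExpr, scaled by TMM and tested with edgeR 4.0.16 (R 4.3.3) by the quasi-likelihood test with passage and treatment as terms (3 residual degrees of freedom), with Benjamini-Hochberg adjustment over every gene tested. Interaction, treatment and passage 13 comparisons used the same test. CPM levels are scaled over the 12 libraries, and differences per treatment used a pseudocount of 0.25 CPM. Replicate numbers stand for the treatment, which the labels give, so the libraries of a treatment were paired. Deviations of the paired libraries from their passage means correlated at 0.320, -0.034, 0.222 and 0.680 in no glucose, 1x, 3x and 2-DG. For the passage 15 libraries of no glucose and 2-DG the paired library was the closest of passage 16. The 3x library of passage 15 was closer to 1x of passage 16 (0.512), and its 1x library to no glucose (0.373). Among the glucose media the libraries of like treatment were thus not always the most alike.

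Named genes are the 10 highest and 10 lowest fold changes among called genes with the same direction in all 4 treatments and a mean of at least 5 CPM, and up to 3 called members of each of 49 lists with the largest changes. Other list members are named to complete a count, after their values were seen, and some members that enter the counts are not reported here by name. The members and lists were chosen with earlier results of these data known. DESeq2 1.42.0 was an alternative.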

Additional observations from a re-analysis of the deposited data

Results flagged for a closer look

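Unc5c had 3.73 CPM in the no glucose library of passage 15, apart from the other 3 libraries of that passage by the criterion of Dixon at 95%, which about 1 in 20 groups meets by chance. Of the 40 groups of 4 libraries examined for the 20 named genes, this was the only 1. All 4 passage 16 libraries of Unc5c lay above it.

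For Msgn1 the passage difference of the single 2-DG pair exceeded that of the 3 glucose pairs by 0.86 on the log2 scale (edgeR adjusted p = 0.0339), and for Cdx4 by 0.79 (adjusted p = 0.0378). The glucose pairs supply the spread in this test, and 2-DG is assumed to vary like them. In all, 24 genes passed, and 19 of them were listed at 0 in at least 1 library. Over the alternatives that were run the count went from 5 to 131.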

How the results depend on the processing

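Against the 1319 calls, the fit with all 12 libraries called 675 genes (647 of them among the 1319), that with no filter on low counts 720 (719 among them), that with no replicate block for treatment 17, and that on the most abundant transcript alone 0, where 1555 genes had an unadjusted edgeR p under 0.05. Without 1 treatment the count ran from 419 to 1547. DESeq2, median-of-ratios factors, a mean of at least 100 counts and GC content and length offsets gave 994, 1305, 1562 and 1913. For changes of at least 2-fold, 66 genes became 37 with 12 libraries, 42 with DESeq2, 25 at a mean of 100 counts, 7 with no replicate block and 0 on the most abundant transcript, and 53 to 88 without 1 treatment. The 24 interaction genes became 10 with 12 libraries, 12 with no filter, 15 on the most abundant transcript and 5 with a count in all 8 libraries (chosen after seeing the data), and 30 to 131 without 1 glucose treatment. With no replicate block, 2714 genes differed between treatments, 2377 between passages 15 and 13 and 2731 between passages 16 and 13. The chromosome 8 median was 0.048 with GC content and length offsets.

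All 20 named genes kept their direction under each of the 12 alternatives but 1, Slc4a5 on the most abundant transcript (-0.58). The same setting turned Tbx3 (-0.48), Tal1 (-1.84), Pax2 (-0.26), Etv5 (-0.73), Stra6 (0.086) and Airn (2.29). The median of the somite list stayed between -0.95 and -0.79 and that of the streak list between 0.35 and 0.54 in every alternative, but with no replicate block edgeR called 1 somite gene, no streak gene and no glycolysis gene, of which 8, 5 and 6 had an unadjusted p under 0.05. Of 1686 values for 142 genes, 579 kept the direction and lost the call, and the cause was not tested. With 4 pairs an exact sign-flip test cannot go below p = 0.125.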
